A study of Mus musculus with 18 samples.

Results

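The genes described here are 10 markers of vascular mural cells and myofibroblasts: Acta2, Tagln, Myh11, Cnn1, Des, Rgs5, Pdgfrb, Notch3, Mylk and Myl9. They were chosen by name, with earlier results of these data known. Each was found under its Ensembl identifier among the 55416 gene identifiers measured in mouse optic nerve head. All 10 passed the filter on low counts that left 15118 genes for testing. That filter accepts a gene with enough counts in as few libraries as the smallest group holds, so the sparse members Myh11 and Des passed although they had 0 reads in 7 and 10 of the 18 libraries.

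The optic nerve head is where the optic nerve begins at the back of the eye, and its RNA was collected by laser capture from tissue sections. At 22 months of age the labels give 3 libraries of B6.EDA+/+ mice and 5 of C57BL/6J control mice, and at 12 months 5 of each. As background, EDA+/+ mice carry an engineered fibronectin gene, Fn1, whose extra domain A (EDA) exon is included constitutively, and C57BL/6J is the common inbred laboratory strain. The labels give no sex, litter or batch and do not say that each library is a separate animal, so the p-values rest on a spread between libraries that can be partly technical. Sample numbers in the titles do not interleave between groups, so group and any processing order that followed them cannot be told apart.

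Mural cells wrap the vessel wall: smooth muscle cells surround arterioles, and pericytes surround capillaries. Smooth muscle contracts when myosin light chain kinase phosphorylates the regulatory light chain of myosin on actin filaments, and its contractile genes are known to be switched on by serum response factor with myocardin or related cofactors at a DNA element called the CArG box. Pericytes depend on PDGF-B signalling through PDGFRB, and vascular smooth muscle depends on NOTCH3 signalling. Myofibroblasts are fibroblast-derived or related cells that take up smooth muscle actin and deposit matrix during scarring, so Acta2 marks them and smooth muscle alike. In RNA of bulk tissue, fewer cells of a type and less RNA per cell cannot be told apart.

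Library totals ran from 13097498 to 18488733 expected counts (reads as estimated per gene by RSEM). A single gene, ENSMUSG00000119584, took 4.81% to 17.3% of them in EDA-labelled and 10.7% to 32.8% in control-labelled libraries at 22 months. At 12 months it took 3.26% to 16.8% in EDA-labelled and 11.3% to 31.03% in control-labelled libraries. These ranges overlapped, but both ends were lower in EDA-labelled libraries at each age. The reads left for other genes therefore partly followed the label. The tissue label was checked on markers of optic nerve head astrocytes: Gfap, their intermediate filament, had 2577 to 17692 TPM, the water channel gene Aqp4 22.4 to 268 TPM, and Pax2, a transcription factor of these astrocytes, 25.1 to 168 TPM. TPM is a transcript level scaled for transcript length and library total. In RSEM's estimates the share of Fn1 isoforms with the EDA exon did not separate the labels. At 22 months it was 0% to 12.6% in EDA-labelled and 0% to 100% in control-labelled libraries, with medians of 0% and 8.90%. At 12 months it was 0% to 58.5% in EDA-labelled and 0% to 96.2% in control-labelled libraries, with medians of 8.23% and 0%. The high share that the EDA label implies was not seen at either age. The groups are therefore called by their labels throughout. Skeletal muscle genes stood apart in EDA-labelled replicate 1 at 22 months, where 21 of them summed to 325 CPM (counts scaled to library total), against at most 14.2 CPM in every other library. Photoreceptor genes stood apart in control-labelled replicate 2 at 22 months, with a sum of 3199 CPM over 8 genes. Gfap took 3.46% of reads in EDA-labelled replicate 4 at 12 months, and 0.54% to 1.35% in the others.

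Over the 18 libraries the highest median level belonged to Cnn1, which encodes calponin 1, an actin-binding protein of smooth muscle, at 374 TPM. By RSEM estimates nearly all of this came from a pair of short isoforms, with a median of 368 TPM, and whether their reads come from full Cnn1 transcripts was not settled. The full-length isoform alone had a median of 6.09 TPM, below the gene medians of Myl9, Acta2, Rgs5 and Mylk. Cnn1 was followed by Myl9, the regulatory light chain of smooth muscle myosin, at 29.8 TPM, and Acta2, smooth muscle actin, at 23.8 TPM. Rgs5, a regulator of G-protein signalling enriched in pericytes, had a median of 12.4 TPM, Mylk, myosin light chain kinase, 7.46 TPM, and Tagln, the actin-binding protein transgelin, 4.07 TPM. The receptors were lower, with medians of 3.56 TPM for Pdgfrb and 1.96 TPM for Notch3. Lowest were Myh11, smooth muscle myosin heavy chain, at 0.18 TPM and Des, the muscle intermediate filament desmin, at 0 TPM.

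Neighbours in this order mostly changed places between libraries. Cnn1 exceeded Myl9 in 17 of 18 libraries, Pdgfrb exceeded Notch3 in 15, and Rgs5 exceeded Mylk in 14. Myl9 exceeded Acta2 in only 12 of 18, Acta2 exceeded Rgs5 in 11, and Tagln exceeded Pdgfrb in 11, so these neighbours were not separated beyond the spread between libraries. Myh11 was above Des in 7 of 18 libraries.

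**Figure D1:**
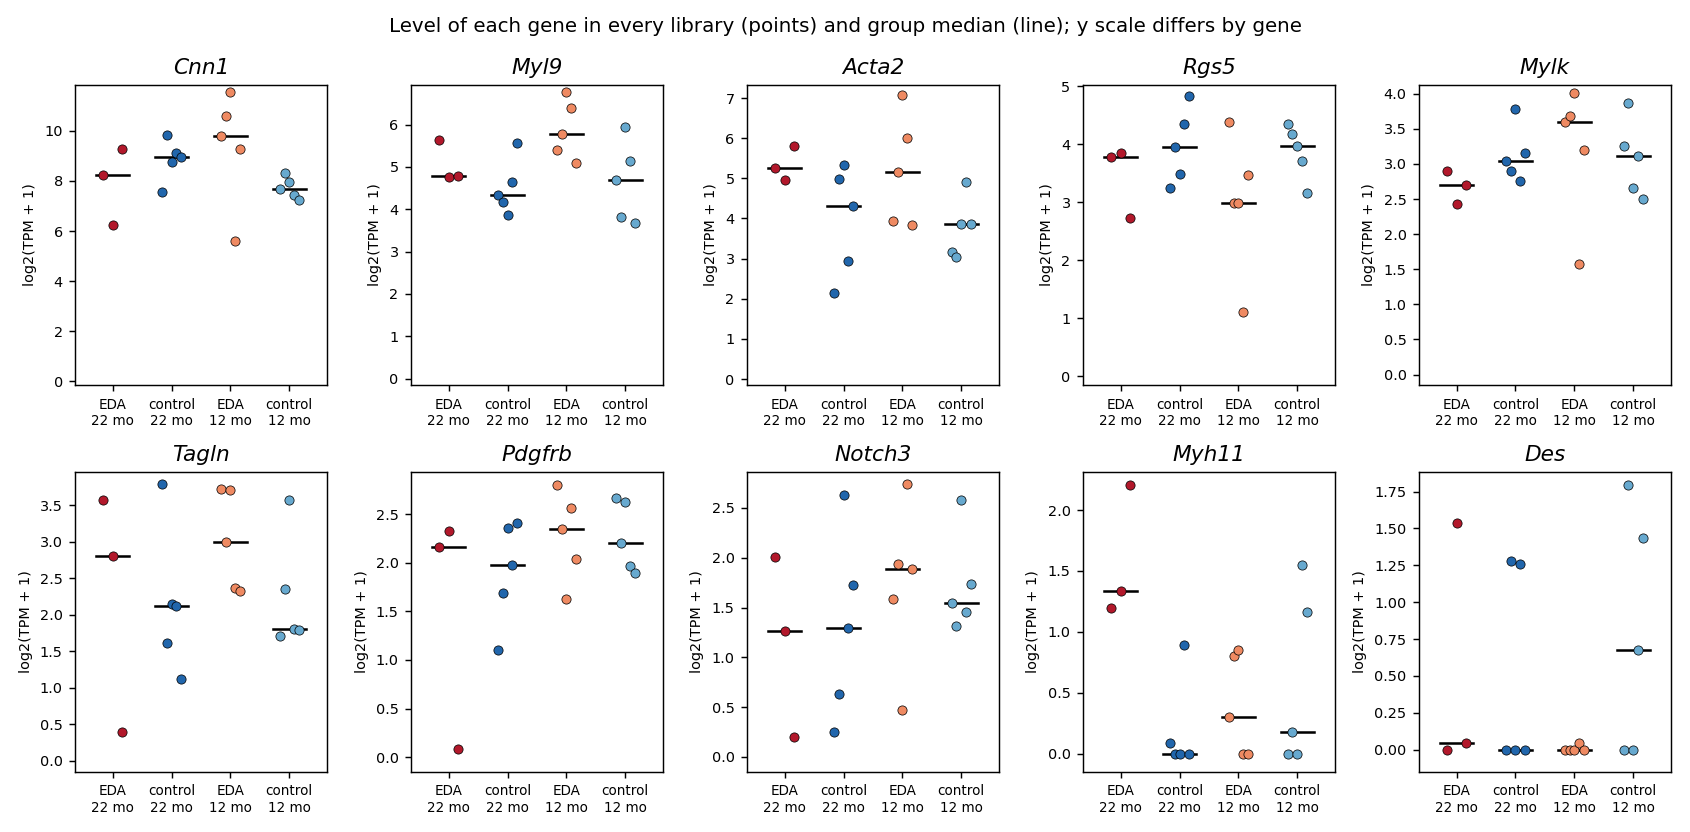
Level of each of the 10 genes on a log2(TPM + 1) axis in every library (points), with the group median (line), for EDA-labelled and control-labelled libraries at 22 and at 12 months; the axis range differs between genes. At 12 months 4 of 5 EDA-labelled libraries lie above all control-labelled ones for Cnn1, and at 22 months 3 of 3 do so for Myh11.

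At 12 months the members furthest above control were Cnn1, Acta2 and Myl9, and the member furthest below was Des. None of the 10 passed the test after adjustment over all genes. These 3 do not stand for the contractile members as a set. The log2 fold change was 0.59 ± 0.83 for Tagln, -0.05 ± 0.51 for Mylk and -1.53 ± 1.69 for Myh11 (SE). In edgeR's quasi-likelihood test 0 of 10 members had a Benjamini-Hochberg adjusted p under 0.05, as did 0.0% of the 15118 genes. Without adjustment 4 of 10 members had p under 0.05, where 4.56% of all genes did: 3 of 10 with higher levels in EDA-labelled libraries (Cnn1, Acta2 and Myl9), where 2.96% of all genes were, and 1 of 10 with lower levels (Des), where 1.59% were. Because the members were chosen with earlier results of these data known, these counts are no test of the list. DESeq2 called 32 genes (0.181%) and limma voom 2, none of them a member. The members' median log2 fold change was -0.06, beside -0.01 over all genes, and 4 of 10 lay above 0, beside 49.5% of all genes.

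At 22 months no member had an unadjusted p under 0.05, where 3.96% of all genes did, and Acta2 and Myh11 had the largest positive log2 fold changes. Again 0 of 10 members passed in edgeR, as did 0.0% of all genes, while DESeq2 called 47 genes (0.3%) and limma voom 1, none of them a member. The members' median log2 fold change was 0.06, beside -0.07 over all genes, and 5 of 10 lay above 0, beside 46.0% of all genes. In 1 of 10 members, Myh11, the EDA-labelled libraries all lay above the control-labelled ones. Of all genes, 1.32% showed such a separation in that direction. With simulated counts of the same depth and spread, edgeR recovered 30% of genes changed 4-fold and 54% of those changed 8-fold at 22 months (14367 genes tested), and 47% and 59% at 12 months (14374 genes tested). A p above the threshold therefore does not show that a member was unchanged. The genes changed in the simulation all averaged at least 2 log2 CPM. Its rates therefore do not cover Tagln, Myh11 and Des, which averaged less.

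**Figure D2:**
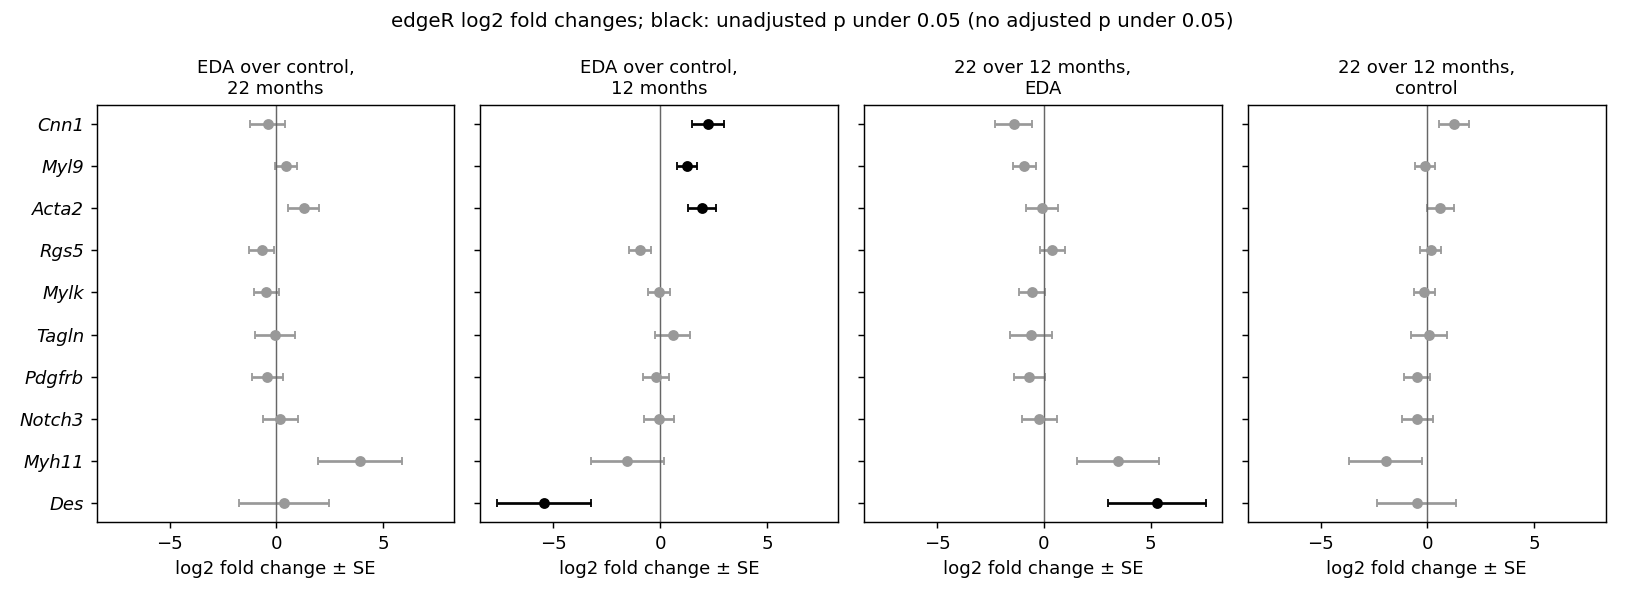
edgeR log2 fold change of each gene with its standard error (bars) for EDA-labelled over control-labelled libraries at 22 and 12 months and for 22 over 12 months within each label; black points have an unadjusted p under 0.05. Cnn1, Myl9, Acta2 and Des are black at 12 months, and Des also for 22 over 12 months in EDA-labelled libraries.

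Acta2 lies on chromosome 19, and its product is the actin isoform that defines smooth muscle and myofibroblasts. At 12 months it had 14.2, 34.9, 134, 63.3 and 13.4 TPM in the EDA-labelled libraries, against 7.97, 7.28, 13.6, 28.8 and 13.5 TPM in the control-labelled ones. EDA-labelled replicates 2, 3 and 4 lay above every control-labelled library, and replicates 1 and 5 lay within their range. This gave a log2 fold change of 1.95 ± 0.66 (SE, edgeR adjusted p = 1), with an unadjusted p under 0.05. It was 1.12 in limma voom, with an unadjusted p above 0.05. Without replicate 3, the highest library, it was 1.20, and without replicates 3 and 4 together 0.55, both with an unadjusted p above 0.05. Replicate 3 was also the highest library for Cnn1 and Myl9, and replicate 4 the one with the most Gfap. At 22 months Acta2 had 37.5, 30.1 and 54.6 TPM in the EDA-labelled libraries, against 3.40, 30.5, 39, 6.61 and 18.8 TPM in the control-labelled ones. All 3 lay above the control-labelled median, but 2 control-labelled libraries lay above at least 1 of them. The log2 fold change was 1.27 ± 0.72 (SE, edgeR adjusted p = 1). The value was 1.81, with an unadjusted p under 0.05, without the libraries that stood apart in skeletal muscle and photoreceptor genes, EDA-labelled replicate 1 and control-labelled replicate 2. Without EDA-labelled replicate 3 it was 0.64.

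Cnn1, on chromosome 9, had 894, 1556, 2979, 48.2 and 625 TPM in EDA-labelled libraries at 12 months, against 205, 316, 249, 172 and 149 TPM in control-labelled ones. EDA-labelled replicates 1, 2, 3 and 5 exceeded the highest control-labelled library, while replicate 4 was the lowest of all 18. The fitted log2 fold change was 2.25 ± 0.74 (SE, edgeR adjusted p = 1), with the smallest unadjusted p of any member. Leaving out 1 library at a time gave 1.61 to 2.56, always with an unadjusted p under 0.05, and the lowest of these values was the one without replicate 3. Without replicates 3 and 4 together it was 2.00. Over the alternatives the adjusted p ran between 0.224 in limma voom and 1. At 22 months Cnn1 had 304, 75.6 and 614 TPM in EDA-labelled libraries, against 188, 907, 431, 562 and 494 TPM in control-labelled ones. The groups overlapped, and the log2 fold change was -0.41 ± 0.83 (SE, edgeR adjusted p = 1). It ran between -1.75 without EDA-labelled replicate 3 and 0.10 without EDA-labelled replicate 2.

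Myl9, on chromosome 2, encodes the light chain whose phosphorylation starts smooth muscle contraction. Its levels at 12 months were 41.3, 53.6, 109, 83.0 and 32.9 TPM in EDA-labelled libraries, against 24.9, 13.2, 60.2, 34 and 11.7 TPM in control-labelled ones. All 5 EDA-labelled libraries lay above the control-labelled median of 24.9 TPM, although on this scale replicates 1, 2 and 5 remained below the highest control-labelled library. On the count scale, 3 of 5 exceeded every control-labelled library. The log2 fold change was 1.26 ± 0.46 (SE, edgeR adjusted p = 1). It was 0.97 without replicate 3 and 0.60 without replicates 3 and 4, both with an unadjusted p above 0.05. At 22 months Myl9 had 48.7, 26.1 and 26.7 TPM in EDA-labelled libraries, against 19.1, 17.0, 13.7, 23.9 and 46.5 TPM in control-labelled ones. All 3 EDA-labelled libraries lay above 4 of 5 control-labelled ones, and the log2 fold change was 0.46 ± 0.52 (SE, edgeR adjusted p = 1). Myl9 was the steadiest member: its biological coefficient of variation in the edgeR fit was 0.525, and 20.3% of genes had a lower one.

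The promoters of Acta2, Cnn1 and Myl9 are shown because these 3 genes had the lowest p-values among members with higher levels at 12 months, and because CArG boxes in such windows are the textbook element of smooth muscle genes. The sequences are those of RefSeq on GRCm38.p6, from 250 bases before the gene's start to 50 after it, 5′ to 3′ on the gene's strand. Capitals mark CArG boxes, either exact (CC, 6 bases that are A or T, then GG) or with 1 of those 6 bases being G or C. The element reads the same way on both strands, so each match counts once.
Acta2, chr19:34255324-34255623, minus strand: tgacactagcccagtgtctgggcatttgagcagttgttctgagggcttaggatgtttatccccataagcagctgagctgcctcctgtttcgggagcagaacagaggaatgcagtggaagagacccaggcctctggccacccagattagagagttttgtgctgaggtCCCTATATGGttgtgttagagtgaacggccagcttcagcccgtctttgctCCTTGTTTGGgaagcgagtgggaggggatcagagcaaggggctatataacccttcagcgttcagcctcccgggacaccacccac
Myl9, chr2:156775214-156775513, plus strand: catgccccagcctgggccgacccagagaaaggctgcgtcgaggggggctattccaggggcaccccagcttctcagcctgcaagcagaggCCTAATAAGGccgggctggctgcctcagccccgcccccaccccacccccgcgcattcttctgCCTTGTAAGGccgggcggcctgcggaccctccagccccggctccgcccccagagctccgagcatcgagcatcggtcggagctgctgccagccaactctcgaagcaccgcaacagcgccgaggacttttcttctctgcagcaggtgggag
Cnn1, chr9:22099003-22099302, plus strand: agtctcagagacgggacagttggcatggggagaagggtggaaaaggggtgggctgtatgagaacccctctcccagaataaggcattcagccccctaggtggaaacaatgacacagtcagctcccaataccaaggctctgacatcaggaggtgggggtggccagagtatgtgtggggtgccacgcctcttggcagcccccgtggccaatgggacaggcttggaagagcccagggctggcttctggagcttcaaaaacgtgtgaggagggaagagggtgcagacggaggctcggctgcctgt
The window of Acta2 held 2 boxes with 1 base off, which start 84 and 34 bases before the gene's start. All such distances rest on the annotated RefSeq start, and where transcripts begin in this tissue was not tested. That of Myl9 held an exact box 161 bases and a box with 1 base off 99 bases before the start. These letters did not occur in the Cnn1 window. Of 7 members with a promoter in the table, 1 held an exact box and 2 held one with up to 1 base off, against 1.63% and 9.98% of 32851 mouse promoters of that length. Tagln, Myh11 and Pdgfrb had no entry.

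Tagln, on chromosome 9, encodes the calponin-related protein transgelin (SM22). At 22 months it had 10.9, 5.98 and 0.32 TPM in EDA-labelled libraries, against 12.8, 2.05, 3.41, 3.36 and 1.18 TPM in control-labelled ones. Its 12-month levels were 12.2, 7, 12.0, 4.17 and 4.01 TPM in EDA-labelled libraries, against 2.27, 4.12, 10.9, 2.49 and 2.45 TPM in control-labelled ones. By count, 4 of 5 EDA-labelled libraries at 12 months lay above the control-labelled median, and 1 of 5 lay above every control-labelled library. The log2 fold changes were -0.07 ± 0.96 at 22 months and 0.59 ± 0.83 at 12 months (SE, edgeR adjusted p = 1 for both). Libraries of this kit carry no strand, and the antisense gene Gm48529 covers 1241 of the 1988 exon bases of Tagln, so the reads of the pair cannot be told apart there.

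Myh11, on chromosome 16, encodes the myosin heavy chain regarded as the most specific marker of smooth muscle. At 22 months it had 1.29, 1.52 and 3.61 TPM in EDA-labelled libraries, against 0.06, 0, 0, 0.86 and 0 TPM in control-labelled ones. The groups did not overlap, with 422 reads in 3 of 3 EDA-labelled libraries, against 59 reads in 2 of 5 control-labelled libraries. Its log2 fold change was 3.91 ± 1.96 (SE, edgeR adjusted p = 1). With 1 library left out it ran between 2.87 without EDA-labelled replicate 3, which had the highest value, and 7.02 without control-labelled replicate 4, which held most of that group's reads. Among these fits only the one without that control-labelled library had an unadjusted p under 0.05. Of the other fits, p was under 0.05 in limma voom (4.20, adjusted p = 0.93), without the count filter, and with only the groups compared. The same held with Xist against Y-linked genes as a covariate. It was above 0.05 in DESeq2 (4.02), with DESeq2 size factors in edgeR and with the share of ENSMUSG00000119584 (3.83). Without the libraries that stood apart in skeletal muscle and photoreceptor genes the value was 3.96, with p also above 0.05. At 12 months Myh11 had 0.23, 0.74, 0.80, 0 and 0 TPM in EDA-labelled libraries, against 0, 0.13, 0, 1.93 and 1.24 TPM in control-labelled ones. The log2 fold change was -1.53 ± 1.69 (SE, edgeR adjusted p = 1), and the groups overlapped.

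Des, on chromosome 1, was the sparsest member, with 138 reads in all and 10 or more reads in 5 of 18 libraries. At 12 months it had 0, 0, 0, 0.03 and 0 TPM in EDA-labelled libraries, against 0, 2.47, 0, 0.60 and 1.71 TPM in control-labelled ones. This was 1 read in 5 EDA-labelled libraries, against 60 reads in 3 of 5 control-labelled libraries, a ratio of 0.0156 with a 95% exact interval of 0.000388 to 0.0902 that covers counting error only. The log2 fold change was -5.44 ± 2.22 (SE, edgeR adjusted p = 1), a fitted value that depends on the prior count. With 1 library left out it ran between -6.76 without EDA-labelled replicate 4, which held the single read, and -4.28 without control-labelled replicate 2, which held 36 of the 60 reads. The last of these had an unadjusted p above 0.05, as did the value of -2.43 with the read share of ENSMUSG00000119584, an abundant gene, as a covariate. Groups still overlapped, since 2 control-labelled libraries also had 0 reads. At 22 months Des had 0, 1.90 and 0.03 TPM in EDA-labelled libraries, against 0, 1.43, 0, 1.39 and 0 TPM in control-labelled ones, and a log2 fold change of 0.35 ± 2.11 (SE, edgeR adjusted p = 1). Its 0 reads in EDA-labelled replicate 1 at 22 months stood beside 204 TPM of skeletal muscle actin, Acta1, in that library.

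Mylk, on chromosome 16, had 11.1, 11.9, 15.1, 1.98 and 8.17 TPM in EDA-labelled libraries at 12 months, against 8.59, 13.6, 5.29, 7.66 and 4.67 TPM in control-labelled ones. At 22 months it had 6.48, 4.37 and 5.49 TPM in EDA-labelled libraries, against 7.25, 6.46, 12.8, 5.73 and 7.93 TPM in control-labelled ones. EDA-labelled replicate 4 at 12 months was again the lowest of all libraries. The log2 fold changes of -0.47 ± 0.60 at 22 months and -0.05 ± 0.51 at 12 months were smaller than their standard errors (edgeR adjusted p = 1 for both).

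Rgs5, on chromosome 1, is among the most used pericyte markers. It had 12.8, 13.5 and 5.61 TPM in EDA-labelled libraries at 22 months, against 8.45, 14.6, 10.2, 19.5 and 27.6 TPM in control-labelled ones. The 12-month values were 20.0, 6.97, 6.94, 1.15 and 10.2 TPM in EDA-labelled libraries, against 19.4, 17.2, 14.7, 12.1 and 7.97 TPM in control-labelled ones. By count, 0 of 3 and 1 of 5 EDA-labelled libraries lay above the control-labelled median at 22 and 12 months. On the log2 scale the fold changes were -0.69 ± 0.59 at 22 months and -0.94 ± 0.50 at 12 months (SE, edgeR adjusted p = 1 for both). At 12 months the value was -1.41 without EDA-labelled replicate 1, the highest of its group, with an unadjusted p under 0.05, and -0.65 without replicate 4, the lowest, with one above it.

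Pdgfrb, on chromosome 18, encodes the receptor that recruits pericytes to vessels. It had 3.49, 4.01 and 0.06 TPM in EDA-labelled libraries at 22 months, against 1.15, 2.22, 4.12, 2.95 and 4.32 TPM in control-labelled ones. At 12 months it had 5.97, 4.10, 2.08, 4.92 and 3.12 TPM in EDA-labelled libraries, against 5.37, 3.62, 5.19, 2.90 and 2.71 TPM in control-labelled ones. Apart from EDA-labelled replicate 3 at 22 months, which was far below the rest, the libraries of both labels overlapped widely. Genotype log2 fold changes were -0.42 ± 0.72 at 22 months and -0.21 ± 0.61 at 12 months (SE, edgeR adjusted p = 1 for both).

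Notch3, on chromosome 17, encodes the Notch receptor of mural cells. It had 3.01, 1.41 and 0.15 TPM in EDA-labelled libraries at 22 months, against 0.19, 0.55, 5.18, 1.46 and 2.32 TPM in control-labelled ones. Values at 12 months were 2.00, 2.84, 0.39, 5.67 and 2.71 TPM in EDA-labelled libraries, against 1.92, 1.48, 4.98, 1.75 and 2.33 TPM in control-labelled ones. Both groups overlapped at each age, and in TPM EDA-labelled replicate 3 at 22 months was the lowest library for Notch3, Pdgfrb and Tagln alike. By count it had 1.23 CPM of Notch3, and EDA-labelled replicate 3 at 12 months had 1.20 CPM. EDA-labelled replicate 3 at 22 months also had the fewest genes with 10 or more reads, 9703, against 10376 to 13048 in the others, and its part in these values was not tested. The log2 fold changes were 0.19 ± 0.81 at 22 months and -0.06 ± 0.70 at 12 months (SE, edgeR adjusted p = 1 for both).

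Age was compared within each label, from the same libraries. In EDA-labelled libraries, 22 over 12 months, 0 of 10 members passed in edgeR, as did 0.0% of all genes, and DESeq2 called 51 genes (0.303%) and limma voom 0, none a member. Only Des had an unadjusted p under 0.05 (4.98% of all genes did), with a log2 fold change of 5.29 ± 2.29 (SE, edgeR adjusted p = 0.96) that rests on 35 reads in 2 libraries at 22 months and 1 read at 12 months. Of those reads 34 were in EDA-labelled replicate 2 at 22 months. Without that library the value was 1.26, and in limma voom 2.67, both with an unadjusted p above 0.05. Myh11 had higher levels in 3 of 3 libraries at 22 months than in any at 12 months, with a log2 fold change of 3.48 ± 1.93 (SE, edgeR adjusted p = 0.96). Such a separation occurred in 1.76% of all genes. With 1 library left out the value for Myh11 ran between 2.43 without EDA-labelled replicate 3 at 22 months and 4.32 without EDA-labelled replicate 3 at 12 months. Cnn1 had a log2 fold change of -1.41 ± 0.86 (SE, edgeR adjusted p = 0.98). It ran between -2.75 without replicate 3 at 22 months and -0.77 without replicate 3 at 12 months, and was -2.66 in limma voom. The -2.75 and the -2.66 had an unadjusted p under 0.05, the -0.77 one above it. Myl9 had a log2 fold change of -0.91 ± 0.54 (SE, edgeR adjusted p = 0.96). The others were -0.09 ± 0.73 for Acta2, -0.59 ± 0.97 for Tagln, -0.56 ± 0.60 for Mylk, 0.40 ± 0.57 for Rgs5, -0.69 ± 0.72 for Pdgfrb and -0.22 ± 0.82 for Notch3 (SE), smaller than their standard errors. Of the 10, 3 lay above 0, beside 46.9% of all genes, and the median was -0.39, beside -0.06.

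In control-labelled libraries, 22 over 12 months, 0 of 10 members passed in edgeR, as did 0.0% of all genes, and DESeq2 called 31 genes (0.184%) and limma voom 0, none a member. No member had an unadjusted p under 0.05, where 3.51% of all genes did. Cnn1 had the lowest p, with 4 of 5 libraries at 22 months above every library at 12 months and a log2 fold change of 1.24 ± 0.72 (SE, edgeR adjusted p = 1). Myh11 had -1.96 ± 1.72 and Des -0.50 ± 1.85 (SE). For the rest the log2 fold change was below its standard error, at 0.60 ± 0.64 for Acta2, 0.06 ± 0.83 for Tagln, -0.11 ± 0.45 for Myl9, -0.14 ± 0.51 for Mylk, 0.15 ± 0.50 for Rgs5, -0.47 ± 0.61 for Pdgfrb and -0.47 ± 0.71 for Notch3 (SE). The median over the members was -0.13, beside 0.02 over all genes, and 4 of 10 lay above 0, beside 51.6% of all genes.

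Cnn1 thus had opposite signs with age under the 2 labels, and the test of that difference is the interaction, the genotype difference at 22 months less that at 12 months. It was -2.66 ± 1.13 on the log2 scale for Cnn1 (SE, edgeR adjusted p = 1.00) and 5.45 ± 2.58 for Myh11 (SE, edgeR adjusted p = 1.00). With 1 library left out Cnn1 ran between -4.00 without EDA-labelled replicate 3 at 22 months and -2.02 without EDA-labelled replicate 3 at 12 months, the last with an unadjusted p above 0.05. Myh11 ran between 4.402 without EDA-labelled replicate 3 at 22 months, with an unadjusted p above 0.05, and 8.55 without control-labelled replicate 4 at 22 months. These 2 of 10 members had an unadjusted p under 0.05, where 4.02% of all genes did: 1 above 0, beside 1.54% of all genes, and 1 below, beside 2.48%. After adjustment 0 of 10 passed, as did 0.0% of all genes. DESeq2 called 41 genes (0.255%) for the interaction and limma voom 1, none a member. The interaction was 5.79 ± 2.84 for Des (SE), and 1.77 without EDA-labelled replicate 2 at 22 months. It was -0.68 ± 0.98 for Acta2, -0.65 ± 1.27 for Tagln, -0.80 ± 0.70 for Myl9, -0.41 ± 0.79 for Mylk, 0.25 ± 0.76 for Rgs5, -0.21 ± 0.94 for Pdgfrb and 0.25 ± 1.07 for Notch3 (SE). Of the 10 members 4 lay above 0, beside 47.2% of all genes.

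RSEM's isoform estimates placed most reads of 2 members, Cnn1 and Mylk, on shorter transcripts. In Cnn1, a pair of short isoforms, ENSMUST00000214601 and ENSMUST00000216872, held 88.3% to 99.8% of the gene's TPM (mean 96.9% ± 3.06, SD, n = 18). The full-length isoform, ENSMUST00000001384, has 1296 bases beyond the ends of that pair, and it had 0.38 to 58.8 TPM. At 12 months full-length Cnn1 averaged 26.1 ± 22.4 TPM in EDA-labelled and 4.11 ± 1.36 TPM in control-labelled libraries (SD, n = 5 each), the same order as for the whole gene. At 22 months it averaged 1.84 ± 0.96 TPM in EDA-labelled (SD, n = 3) and 10.1 ± 2.79 TPM in control-labelled libraries (SD, n = 5). No test was run on isoforms. Whether the reads given to the short pair come from full Cnn1 transcripts was not settled.

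The isoform ENSMUST00000231589 of Mylk, with 3 exons and 1620 bases, held 53.3% to 99.5% of the gene's TPM (median 96.0% over 18 libraries), while the full-length ENSMUST00000023538 had 0 to 0.54 TPM. Its coding part of 477 bases is identical to the end of the 5850-base coding part of the full-length isoform, from position 5374 on, which is 8.15% of it. As background, Mylk is known to give rise from its end to telokin, a short protein without the kinase domain that is abundant in smooth muscle. By these estimates the level of Mylk was mainly that of this short transcript. The first 150 coding bases of the short isoform, from GENCODE M21 on GRCm38, chromosome 16, plus strand, are shown because most reads of the gene fell to this transcript, with its start codon in capitals.
Mylk, short isoform: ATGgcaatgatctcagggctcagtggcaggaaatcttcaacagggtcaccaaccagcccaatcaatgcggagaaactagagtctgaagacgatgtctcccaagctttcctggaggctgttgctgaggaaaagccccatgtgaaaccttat
The lowest share, 53.3%, was that of EDA-labelled replicate 4 at 12 months, the library with the lowest total of Mylk. Isoform shares are estimates, since RSEM divides reads over the bases that isoforms share. Between genes, windows of 50 bases that also occur in transcripts of another gene made up at most 0.34% of any member, so the members share almost no sequence with paralogs at that length.

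**Figure D3:**
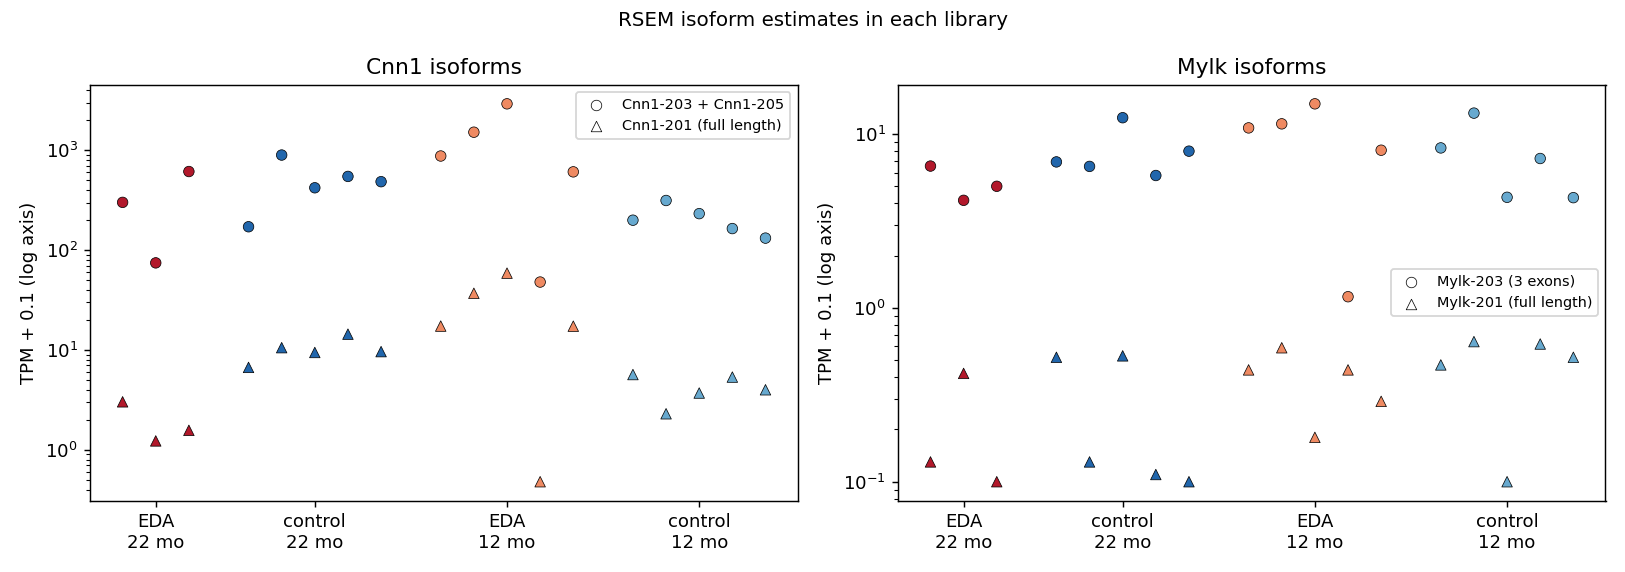
RSEM isoform levels in each library on a log axis of TPM + 0.1, for EDA-labelled and control-labelled libraries at 22 and at 12 months: circles are the short isoforms (the sum of a pair for Cnn1, the 3-exon isoform for Mylk), and triangles are the full-length ones. The circles lie above the triangles in every library, and full-length Cnn1 ranges from 0.38 to 58.8 TPM.

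The 10 genes did not vary as 1 group between libraries of the same label and age. Over the 45 pairs, correlations of log2 CPM less the group mean had a median Pearson r of -0.02, and 20 of 45 were above 0. Only Pdgfrb with Notch3 passed after Benjamini-Hochberg adjustment over the 45 pairs, with r = 0.77 and Spearman's rho = 0.82 over 18 libraries (adjusted permutation p = 0.0050 and 0.0036). Without the 2 libraries furthest from the median in Pdgfrb r was 0.82, and without the 2 furthest in Notch3 it was 0.70. The libraries differ in depth and in the tissue captured, and the part of either in this relation was not tested. Cnn1 with Mylk came next, with r = 0.66 (adjusted permutation p = 0.066), which was 0.37 without the 2 libraries furthest from the median in Cnn1. On the log2(TPM + 1) scale 2 pairs passed by Pearson's r and 0 by Spearman's rho.

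**Figure D4:**
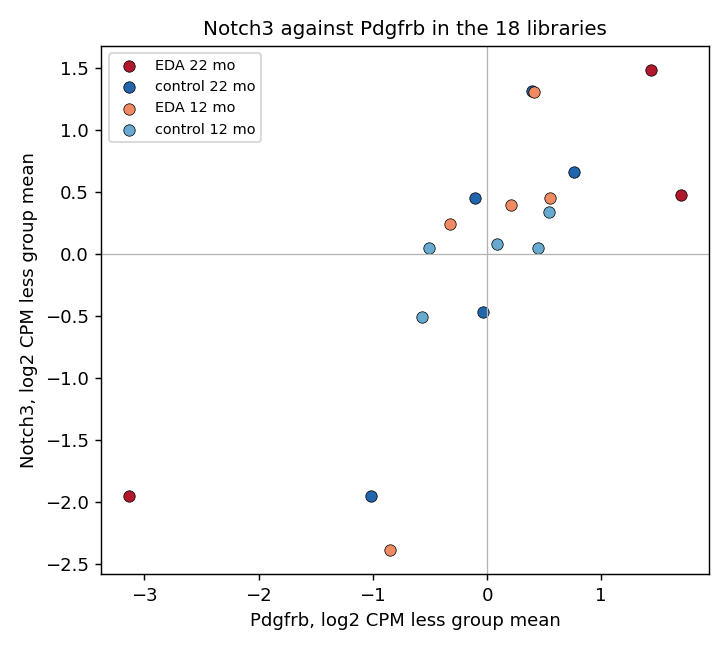
Notch3 against Pdgfrb in the 18 libraries, each as log2 CPM less the mean of its group, with colours for the 4 groups. Libraries low in Pdgfrb are low in Notch3, with r = 0.77.

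By the rule for likeness, the genes that followed the mean standardized level of the 10 members most closely over the 18 libraries, out of 7187 compared, were Bcl2l1 (r = 0.75), Tubb4b (0.73), Cebpd (0.71), Anxa1 (0.71), Gdf15 (0.70), Zdhhc18 (0.67), Csrnp1 (0.66) and Fam171a1 (0.65). These are the highest values of a search over all those genes and carry no test.

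Other genes of the contractile and pericyte programmes showed no member past the adjusted threshold in edgeR at either age. Beside the lists that follow, 46.0% of all genes had a log2 fold change above 0 at 22 months and 49.5% at 12 months. The medians over all genes were -0.07 and -0.01, and 3.96% and 4.56% had an unadjusted p under 0.05. Of 17 tested genes among 18 other smooth muscle contractile genes, 8 had a log2 fold change above 0 at 22 months and 8 at 12 months, with medians of -0.03 and -0.0020. At 12 months 2 of them had an unadjusted p under 0.05. These were Tpm1, a tropomyosin, with 17.1 to 44.6 CPM in EDA-labelled and 5.39 to 16.9 CPM in control-labelled libraries (log2 fold change 1.13 ± 0.41, SE), and Synpo2, an actin-bundling protein, with 517 to 776 CPM in EDA-labelled and 270 to 541 CPM in control-labelled libraries (0.53 ± 0.24). The groups of Tpm1 did not overlap at 12 months, as was so for 0.84% of all genes in that direction. At 22 months Casq2, a calcium store protein, had an unadjusted p under 0.05 from reads in 1 EDA-labelled library. Actg2, the enteric smooth muscle actin, had 0 reads in all 18 libraries, and the sarcomeric actin Acta1 had reads in 4.

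Of 12 genes that control smooth muscle transcription, 11 were tested, with 5 above 0 at 22 months and 4 at 12 months. Myocd, which encodes myocardin, had 0 reads in 10 of 18 libraries and at most 3.63 TPM, whereas Srf, the serum response factor gene, had 1.97 to 28.8 TPM. Mrtfb, a myocardin-related cofactor, had 131 to 436 CPM in EDA-labelled and 106 to 188 CPM in control-labelled libraries at 22 months (log2 fold change 0.87 ± 0.40, SE, unadjusted p under 0.05). The medians of the list were -0.25 at 22 months and -0.31 at 12 months.

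Of 15 other pericyte genes, 14 were tested, and 11 had a log2 fold change above 0 at 22 months and 8 at 12 months. Of all genes 46.0% and 49.5% did. The list's medians were 0.62 and 0.19, beside -0.07 and -0.01 over all genes. Pericyte genes differed widely in level: Vtn, vitronectin, had 8.35 to 82.9 TPM, Abcc9, a potassium channel subunit, 1.13 to 11.4 TPM, and Cspg4, the NG2 proteoglycan, 0.58 to 8.95 TPM. Higd1b was close to 0, with group medians of 0.276 to 0.756 CPM. Kcnj8, the partner of Abcc9, had 0 reads in 6 of 18 libraries. Mcam, an adhesion molecule of vessels, had 22.7 to 62.6 CPM in EDA-labelled and 9.69 to 30.6 CPM in control-labelled libraries at 12 months (log2 fold change 1.43 ± 0.40, SE, edgeR adjusted p = 1). Endothelial genes stood beside them: 11 of 14 tested had a log2 fold change above 0 at 22 months and 10 at 12 months. Their sum was 482 to 719 CPM in EDA-labelled and 361 to 474 CPM in control-labelled libraries at 22 months, and 346 to 944 CPM in EDA-labelled and 390 to 691 CPM in control-labelled libraries at 12 months. The part of vessel content in the members' levels was not tested.

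Of 17 ligands, receptors and targets in PDGF and Notch signalling, 16 were tested, with 9 above 0 at 22 months and 8 at 12 months and medians of 0.09 and 0.05. Jag2, a Notch ligand, had 17.0 to 74.0 CPM in EDA-labelled and 6.52 to 24.2 CPM in control-labelled libraries at 22 months (log2 fold change 1.32 ± 0.53, SE, unadjusted p under 0.05). Of 12 genes of nonmuscle actomyosin and light chain control, 11 were tested. At 12 months 7 were above 0 and the median was 0.40, and at 22 months 2 were above 0 and the median was -0.26. Actb, cytoplasmic beta-actin, had 1455 to 5426 CPM in EDA-labelled and 1265 to 1605 CPM in control-labelled libraries at 12 months (log2 fold change 1.04 ± 0.29, SE, edgeR adjusted p = 1). Myh9, nonmuscle myosin heavy chain, had 100.4 to 199.99 CPM in EDA-labelled and 61.5 to 119 CPM in control-labelled libraries at that age (0.74 ± 0.33, SE, unadjusted p under 0.05).

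Of 15 fibroblast and myofibroblast genes, 13 were tested, with 6 above 0 at 22 months and 7 at 12 months and medians of -0.14 and 0.07. Lum, the matrix proteoglycan lumican, had 202 to 568 CPM in EDA-labelled and 150.02 to 218 CPM in control-labelled libraries at 22 months (log2 fold change 0.90 ± 0.34, SE, edgeR adjusted p = 1). The list's summed level was 844 to 1085 CPM in EDA-labelled and 492 to 774 CPM in control-labelled libraries at 22 months, and 470 to 811 CPM in EDA-labelled and 620.00 to 823 CPM in control-labelled libraries at 12 months. At 22 months the other smooth muscle contractile genes also summed higher, to 1877 to 2080 CPM in EDA-labelled and 1569 to 1708 CPM in control-labelled libraries. Such sums weigh abundant genes most, and no test was run on them. Synpo2 alone had 481 to 637 CPM in EDA-labelled and 332 to 425 CPM in control-labelled libraries, and Fbln1 of the fibroblast list 169 to 623 and 26.8 to 318 CPM. Gene by gene, 8 of 17 contractile genes tested lay above 0, with a median of -0.03.

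Markers of other cells also differed between libraries, and none passed the adjusted threshold in edgeR. All 8 oligodendrocyte genes had a log2 fold change below 0 at 22 months and above 0 at 12 months, with medians of -1.65 and 0.98. By group median, the summed level of these genes had the opposite order. For 22 months the median was 3433 CPM under the EDA label, against 2290 CPM for controls. The 12-month medians were 2061 CPM under the EDA label and 2656 CPM for controls. The fold changes therefore do not show a shift shared by most libraries. The sum of the 8 genes varied widely. It ran from 810 to 3937 CPM in EDA-labelled and 1012 to 29760 CPM in control-labelled libraries at 22 months, and from 926 to 27733 CPM in EDA-labelled and 368 to 9753 CPM in control-labelled libraries at 12 months. Of 21 skeletal muscle genes 5 were tested, and 4 were above 0 at each age. At 22 months the giant sarcomere protein gene Ttn had 3.23 to 32.7 CPM in EDA-labelled and 0 to 1.26 CPM in control-labelled libraries (log2 fold change 4.71 ± 1.65, SE), and Tnnt3, a fast muscle troponin, 0 to 12.3 CPM in EDA-labelled and 0 to 0.36 CPM in control-labelled libraries (5.73 ± 2.42, SE), both with an unadjusted p under 0.05. Both were highest in EDA-labelled replicate 1, while Ckm, muscle creatine kinase, had reads in 1 library. Astrocyte genes summed to 8684 to 15271 CPM in EDA-labelled and 8607 to 11996 CPM in control-labelled libraries at 22 months, and to 11984 to 33438 CPM in EDA-labelled and 7740 to 15244 CPM in control-labelled libraries at 12 months. Microglial and macrophage genes summed to 275 to 608 CPM in EDA-labelled and 187 to 739 CPM in control-labelled libraries at 22 months, and to 182 to 640 CPM in EDA-labelled and 257 to 373 CPM in control-labelled libraries at 12 months. The part of this makeup in the members' differences was not tested.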

How the data were processed

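Per the labels' protocols, 18 libraries of optic nerve head RNA were made with SMART-Seq v4 and Nextera XT, and STAR alignment was followed by RSEM. GRCm39 is named per the submitters' processing notes, and versions of these tools were not given in the sources used here. The deposited files hold the authors' expected counts (3.59% of gene values not whole, rounded here) and the authors' TPM values for genes and isoforms. From the authors' deposited isoform percentages (percent of a gene's TPM) nothing was taken, and shares were computed from TPM. Symbols came from GENCODE M21 (GRCm38) for 52083 of 55416 identifiers.

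After filterByExpr and TMM, edgeR 4.0.16 (R 4.3.3) fitted 4 group means with robust quasi-likelihood tests, two-sided, Benjamini-Hochberg over 15118 genes, threshold 0.05. DESeq2 1.42.0, limma 3.58.1 voom, other filters and scalings, 2 covariates and left-out libraries were alternatives. Correlations used 100000 permutations. The fit was tested on simulated data. Between any 2 libraries of a group the chi-square per degree of freedom was at least 39.1. Intervals cover counting error only, since amplified reads are not independent molecules.

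All 10 members are named in every comparison, and of each of 14 other lists up to 2 genes with the smallest p in a genotype comparison could be named, with markers of other cell types beside the results they touch. Genes given by their level alone, such as Srf, Vtn and Acta1, were chosen after their values were seen. Genes most like the members (8) were ranked by Pearson r among genes averaging 2 log2 CPM or more. Members and lists were chosen with earlier results of these data known. Replicates were numbered in accession order and pair nothing. The neuron and pigment cell lists gave 0 genes past the adjusted threshold.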

Additional observations from a re-analysis of the deposited data

Results flagged for a closer look

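In 5 of 30 gene and group pairs examined, 1 library lay further from its nearest neighbour than Dixon's 95% limit allows. Chance gives about 1 in 20 for normally distributed values, but these TPM are skewed and partly 0, so the number of such pairs cannot be read against that share. The 30 pairs do not cover all 10 members in all 4 groups. None of the 5 was in EDA-labelled libraries at 22 months, a group of 3. Its absence does not show that no library stood apart there, since Pdgfrb had 0.06 TPM in replicate 3, beside 3.49 and 4.01 TPM. Tagln had 12.8 TPM in control-labelled replicate 1 at 22 months, where the other 4 had 1.18 to 3.41 TPM. It had 10.9 TPM in control-labelled replicate 3 at 12 months, where the others had 2.27 to 4.12 TPM. Notch3 had 4.98 TPM in that same library, beside 1.48 to 2.33 TPM in the others. By count that library did not stand apart in Notch3, with 9.53 CPM beside 6.42 to 11.7 CPM. For Tagln it had 6.29 CPM beside 1.04 to 5.05 CPM. In Myh11 and Des, where most values of the group are at or near 0, a single library with reads is enough. Myh11 had 0.86 TPM in control-labelled replicate 4 at 22 months, beside 0 to 0.06 TPM. Des had 0.03 TPM, a single read, in EDA-labelled replicate 4 at 12 months, where the other 4 libraries had 0 TPM.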

How the results depend on the processing

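Members called numbered 0 under every alternative run, and 871 of 931 member values kept their sign. The number of all genes called was 0 in edgeR at 22 months, at 12 months, with age in control-labelled and in EDA-labelled libraries, and for the interaction, and 47, 32, 31, 51 and 41 in DESeq2. In limma voom it was 1 at 22 months, 2 at 12 months and 1 for the interaction. At 12 months it was 1 with a filter at a mean of 2 log2 CPM, and 0 to 1 with 1 library left out. Of the correlations, 2 in place of 1 passed on the log2(TPM + 1) scale. The members' median log2 fold change ran from -0.39 to 0.45 at 22 months and from -0.18 to 0.12 at 12 months.

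Signs turned as follows, and the cause was not tested. At 22 months, with Xist against Y-linked genes as a covariate, Tagln was 0.053 and Notch3 -0.28. With the read share of ENSMUSG00000119584 in the model, Tagln was 0.62, Cnn1 0.012, Notch3 -0.31 and Myl9 -0.10. In voom Tagln was 0.28 and Des -0.017. Without EDA-labelled replicate 1 and control-labelled replicate 2, chosen after seeing the data, Cnn1 was 0.26 and Notch3 -0.83, while Des stayed positive at 2.13. At 12 months Mylk was 0.17 with that share, 0.21 in voom, and 0.07 without EDA-labelled replicates 3 and 4, also chosen after seeing the data. With age in control-labelled libraries Acta2 was -0.13 in voom, Tagln -0.065 with Xist and -0.32 with the share, Des 0.035 with Xist, and Myl9 0.072 with the share and 0.023 in voom. With age in EDA-labelled libraries Acta2 was 0.30 and Notch3 0.52 in voom. For the interaction Acta2 was 0.43 in voom and Notch3 -0.12 with Xist.

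With 1 library left out, ranges that crossed 0 were, at 22 months, -0.58 to 0.56 for Tagln, -1.75 to 0.10 for Cnn1, -3.68 to 1.55 for Des, -0.95 to 0.14 for Pdgfrb and -0.68 to 0.69 for Notch3. At 12 months they were -0.43 to 0.22 for Notch3 and -0.22 to 0.29 for Mylk. With age in control-labelled libraries they were -0.57 to 0.40 for Tagln, -1.70 to 0.67 for Des, -0.17 to 0.31 for Rgs5, -0.32 to 0.20 for Mylk and -0.34 to 0.23 for Myl9, and in EDA-labelled libraries -0.72 to 0.67 for Acta2 and -1.09 to 0.28 for Notch3. For the interaction they were -1.31 to 0.070 for Acta2, -0.034 to 0.72 for Rgs5, -0.74 to 0.35 for Pdgfrb and -0.61 to 0.75 for Notch3.

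No paired analysis was possible because the labels give no replicate numbers, and those used here follow accession order. Over the 18 libraries Des had 138 reads and Myh11 804.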
